A study of Mus musculus with 5 samples.

Results

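The RFX family was followed here across 5 arrays of sorted embryonic lung cells. Its members were taken by symbol as Rfx1 to Rfx7, Rfxap and Rfxank, and every probe set annotated to 1 of these genes alone was used. Of the 9 members, 8 had such a probe set, with 18 probe sets in all, out of 18193 genes and 45037 probe sets on the array. Rfx6 had none and is not analysed here. The arrays held RNA from GFP+ cells, labelled as differentiating ciliated cells, that were isolated by flow cytometry from E17.5 lungs of FOXJ1-GFP embryos, the offspring of FOXJ1-GFP mice and the outbred ICR strain. The transgene reports FOXJ1 activity, so Foxj1 itself, which guided the sort, is no finding in these cells. There were 5 biological replicates with 1 Affymetrix array each, and no second group was analysed here, so no fold change between cell populations was computed. The labels do not say whether the replicates came from separate litters, and the p-values measure only the spread between these 5 samples.

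RFX proteins are transcription factors with a shared winged-helix DNA-binding domain. They bind the X-box, an inverted repeat found upstream of many ciliary genes, and RFX factors switch on ciliary genes from nematode worms to mammals. In airway multiciliated cells Rfx2 and Rfx3 are reported to work together with Foxj1. In the study's tracheal explants, however, overexpressed Rfx2 lowered the share of ciliated cells, while Rfx3 raised it in a preliminary experiment. Rfx5 has a different role: with its partners Rfxap and Rfxank, which belong to the complex without carrying the RFX DNA-binding domain, it occupies the promoters of MHC class II genes.

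Values are the deposited log2 signals. How bright a probe set is depends partly on the sequence of its probes, so levels of different genes and probe sets were not ranked against each other. Each mean was instead tested against a background level of 8.06, the 95th percentile of 146 genes that lung cells should lack (limma, one-sided, all 5 arrays, p-values adjusted over all probe sets). Of these 146 genes, 7 were themselves called above that level, all of them among the 70 tissue-restricted genes and none among the 76 olfactory, vomeronasal and taste receptor genes. A count near this follows from the percentile and is no check of the calls. Alone, the tissue-restricted genes would set a level of 9.56 and the receptor genes 5.44. As a second level 5 was used, the number of arbitrary units that the study set as its minimum average expression. It was applied here to the mean of these 5 arrays alone, which is not the average the study filtered on, so a call above 5 does not follow the study's filter. Medians of the arrays lay between 7.18 and 7.26. Between any pair of arrays Pearson's r over all probe sets, whose values are not independent, was 0.987 to 0.994. The cells were checked against the labelled type: 15 of 15 ciliated cell markers were above background, and so were 8 of 8 alveolar type 2, 7 of 7 alveolar type 1, 10 of 10 endothelial, 8 of 10 mesenchymal, 6 of 7 club cell, 6 of 7 neuroendocrine, 3 of 7 basal cell and 6 of 14 white blood cell markers. Among all genes the share above background was 57.2%. Lists of other cell types were called in full too, so this check does not single out the labelled type. In a sample with markers of several cell types, fewer cells of a type and less RNA per cell cannot be told apart.

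Of the 8 RFX genes measured, 7 were above background in the sorted cells: Rfx1, Rfx2, Rfx3, Rfx5, Rfx7, Rfxap and Rfxank. Rfx4 was not. Among all genes 57.2% were above background. At the level of probe sets, 10 of the 18 were above it, against 39.5% of all probe sets. All 8 genes were above the cut-off of 5, as were 17 of their probe sets, which 81.3% of all genes and 72.2% of all probe sets passed as well.

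**Figure D1:**
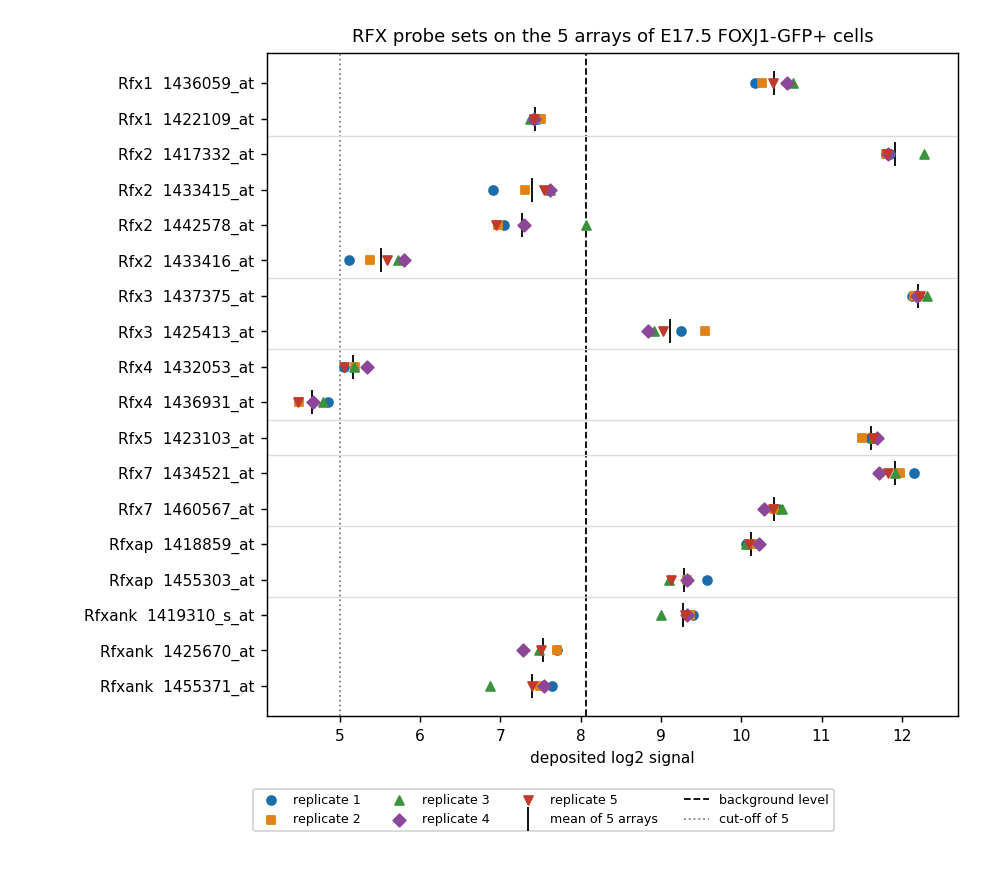
Deposited log2 signal (horizontal axis) of the 18 RFX probe sets (rows, grouped by gene) on each of the 5 arrays; each symbol is 1 replicate, the black tick is the mean, the dashed line is the background level of 8.06 and the dotted line the cut-off of 5. Rfx3, Rfx5, Rfx7 and Rfxap lie right of the background level with every probe set, Rfx1, Rfx2 and Rfxank with 1 probe set each, and Rfx4 with none.

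Rfx3, which is needed for the growth of motile cilia in the mouse, was above background with both of its probe sets. On 1437375_at it read 12.13, 12.15, 12.31, 12.19 and 12.23 in replicates 1 to 5, a mean of 12.20 ± 0.07 (SD, n = 5 arrays; adjusted p = 2.77e-10, limma). No array stood apart, and the lowest and highest value were 0.19 apart. On 1425413_at the values were 9.25, 9.55, 8.92, 8.84 and 9.03 (mean 9.12 ± 0.29; adjusted p = 3.67e-05, limma). Every array was above the background level here too, but the probe sets did not move together: replicate 3 held the highest value on the first and lay below the mean on the other, and replicate 2 held the highest value on the other and lay below the mean on the first.

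Rfx2, a close relative of Rfx3 that is also needed to make mature sperm, was above background with 1 of its 4 probe sets. The study had tested Rfx2 as a factor found with its own microarrays, so this call is no independent result. The values on 1417332_at were 11.85, 11.80, 12.27, 11.82 and 11.82 (mean 11.91 ± 0.20; adjusted p = 2.13e-09, limma). Replicate 3 was the high array and the other 4 lay within 0.05 of each other. The remaining probe sets were not above background, with means of 7.40 ± 0.30 on 1433415_at, 7.27 ± 0.47 on 1442578_at and 5.52 ± 0.28 on 1433416_at. On 1442578_at replicate 3 was again the high array, at 8.06 and thus at the background level, and the other replicates lay between 6.95 and 7.30. On all 4 probe sets replicate 3 was above the probe set's own mean and replicates 1 and 2 were below it.

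Rfx1, a widely expressed factor and the first of the family to be described, was above background with 1 of 2 probe sets. On 1436059_at it read 10.17, 10.26, 10.64, 10.57 and 10.40 (mean 10.41 ± 0.20; adjusted p = 3.93e-08, limma), with replicates 1 and 2 the lowest. On 1422109_at the values ran from 7.37 to 7.51 (mean 7.44 ± 0.05), below the background level on every array and above the cut-off of 5. There replicates 1 and 2 were the highest, within a range of 0.13.

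Rfx7, which activates genes of growth control in human cells, was above background with both probe sets. On 1434521_at it read 12.16, 11.98, 11.92, 11.72 and 11.83 (mean 11.92 ± 0.16; adjusted p = 1.17e-09, limma). On 1460567_at it read 10.46, 10.40, 10.50, 10.29 and 10.40 (mean 10.41 ± 0.08; adjusted p = 4.65e-09, limma). Replicate 4 was the lowest array on both probe sets.

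Rfx4, a factor of the developing brain and the testis, was the member without a call. Its values were 5.05, 5.19, 5.18, 5.35 and 5.06 on 1432053_at (mean 5.17 ± 0.12) and between 4.48 and 4.86 on 1436931_at (mean 4.66 ± 0.17). The first of these lay above the cut-off of 5 (adjusted p = 0.0300, limma). That call was lost without replicate 2 (adjusted p = 0.0662), replicate 3 (0.0588) or replicate 4 (0.0957), and with both probe sets averaged, at 4.91. Both probe sets lay below the 95th percentile of the receptor genes alone, which was 5.44.

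The spread between arrays was small for most members. The median SD of the 10 RFX probe sets above background was 0.16, and that of all probe sets above background was 0.16 as well. Averaged over the 7 genes above background, the deviation from the gene's own mean ran from -0.03 in replicate 2 to 0.06 in replicate 3, a range of 0.09. The ciliated cell markers, averaged the same way, had a range of 0.07, with -0.04 in replicate 2 and 0.03 in replicate 3. For the 8 lists of markers of other cells the range lay between 0.41 (alveolar type 1) and 1.27 (alveolar type 2), with 1.05 for white blood cells and 0.95 for endothelium.

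**Figure D2:**
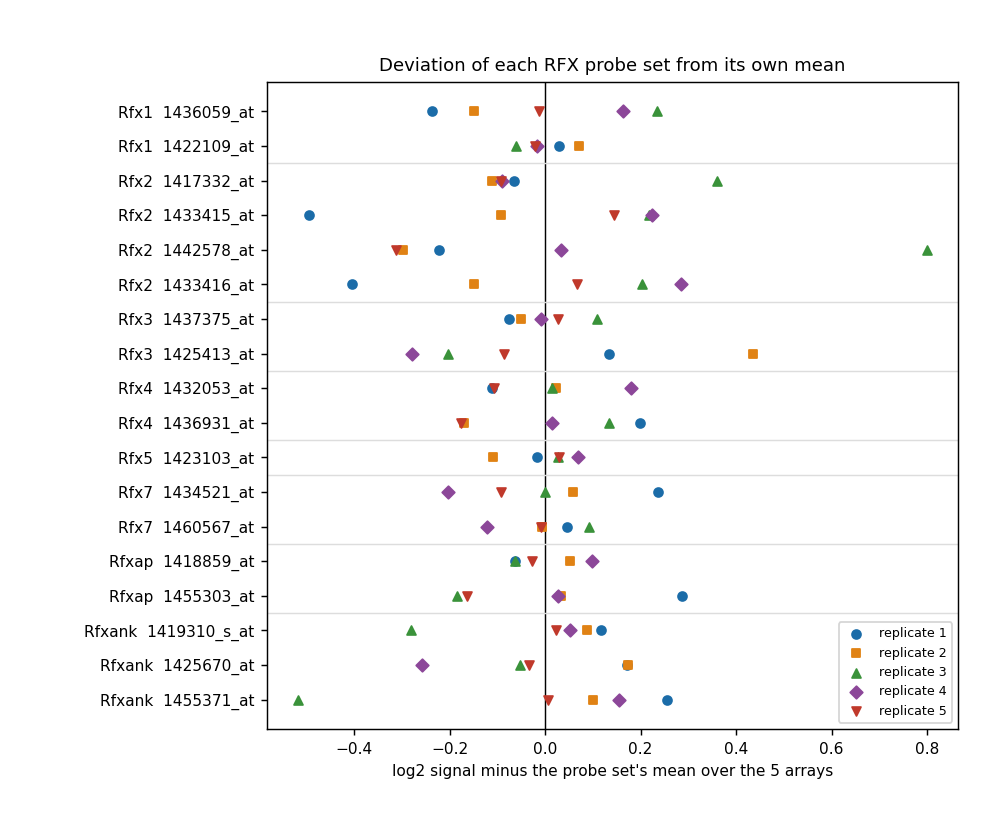
Deviation of each RFX probe set from its own mean over the 5 arrays (horizontal axis, log2 units); rows are the 18 probe sets grouped by gene and each symbol is 1 replicate. Replicate 3 lies right of 0 on all 4 Rfx2 probe sets, up to 0.80 on 1442578_at, and left of 0 on all 3 Rfxank probe sets, down to -0.52 on 1455371_at.

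The promoters of Rfx1, Rfx2 and Rfx3 share a sequence feature. RefSeq promoters (GRCm38.p6, 250 bases before to 50 bases after a start) were at hand for 8 of the 9 members, all but Rfxap. The core of an X-box repeat, GTTGCC on either strand, occurred in 4 of these 8 (Rfx1, Rfx2, Rfx3 and Rfx6) and in 14.1% of all 27025 genes with a promoter in the table. In the first 3 it stands directly behind a reversed repeat unit, as GNAAC, 1 base of any kind and GTTGCC, a pattern that was written down after these promoters had been read. It was found on either strand in 25 genes (0.0925%), these 3 included. The windows below show that pattern in capitals, on the strand of the gene.
Rfx1, chr8:84066822-84066851, + strand: gggtgggtaGCAACAGTTGCCccggtgagg
Rfx2, chr17:56831110-56831139, - strand: tgcagcttgGTAACCGTTGCCgggcgcaac
Rfx3, chr19:28011121-28011150, - strand: tgagttataGCAACCGTTGCCttgtgaatc
Counted from the start base as 0, the pattern begins at -5 in Rfx1, at -122 in Rfx2 and at 25 in Rfx3. A match describes the letters of these windows and is no evidence of binding. The X-box pattern used for the target genes, GTNNCC followed by any 3 bases and GNAAC, was in the promoter of 0 of the 8 members.

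Ciliary genes known as RFX targets were all above the background level of 8.06. The list held 28 mouse genes, most of them counterparts of targets of DAF-19, the RFX factor of Caenorhabditis elegans, and it included genes that depend on Rfx3 in the mouse. Of 25 measured, 25 were above background, with means between 10.04 and 13.84 on the scale of each gene's own probe set. Among all genes 57.2% were above background. Dnah9 and Dnah11, heavy chains of the outer dynein arm that moves the cilium, were at 12.71 ± 0.11 and 11.93 ± 0.11 (SD, n = 5 arrays). Dnah5, a further heavy chain, read 10.85, 10.69, 9.24, 9.74 and 9.69, and its mean was 10.04 ± 0.69. Replicates 1 and 2 were its high arrays, which was not so for either of the other heavy chains. Dnah5 lost its call at 9.56 (tissue-restricted genes alone), which left 24 of 25. At 10.49 (99th percentile) Nphp4 lost its call too, which left 23 of 25. Of all genes, 41.2% and 28.3% passed these levels. Foxj1, the gene behind the reporter and also on this list, lay between 12.72 and 12.94.

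The X-box pattern, searched on both strands, was present in the promoters of 7 of the 23 target genes found in the table, or 30.4%. Among all genes in the table it was present in 2.49%. Of the ciliated cell markers, 4 of 12 (33.3%) held the pattern too, namely Spag6l, Hydin, Deup1 and Ccno. Targets of DAF-19 were also found in the worm partly by searching for X-boxes, so the list is not independent of the pattern. These windows show where the letters stand in the 7 genes, with the matching stretch in capitals on the strand of the gene.
Ift57, chr16:49699199-49699228, + strand: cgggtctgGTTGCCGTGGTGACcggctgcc
Bbs1, chr19:4906605-4906634, - strand: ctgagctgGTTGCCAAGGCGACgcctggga
Bbs7, chr3:36613489-36613518, - strand: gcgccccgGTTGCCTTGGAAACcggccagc
Ttc26, chr6:38381483-38381512, + strand: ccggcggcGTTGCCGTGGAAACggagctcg
Nphp4, chr4:152477903-152477932, + strand: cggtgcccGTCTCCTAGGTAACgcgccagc
Mks1, chr11:87853183-87853212, + strand: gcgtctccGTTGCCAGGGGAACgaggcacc
B9d2, chr7:25680788-25680817, + strand: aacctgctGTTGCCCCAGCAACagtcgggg
Of these 7 windows, 6 carry the GTTGCC core and Nphp4 does not. Ift57 and Ttc26 encode parts of the intraflagellar transport machinery, which carries cargo along the cilium, and they were at 12.70 ± 0.18 and 11.96 ± 0.21. Bbs1 and Bbs7, subunits of the BBSome, a membrane cargo adaptor, were at 11.66 ± 0.23 and 11.83 ± 0.15. Nphp4, Mks1 and B9d2 encode proteins of the transition zone, the gate at the base of the cilium, and were at 10.18 ± 0.20, 11.61 ± 0.19 and 10.99 ± 0.24. Each of the 7 genes was above background on every array.

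The factors that act beside Rfx2 and Rfx3 were above background as well, in 11 of 11 measured regulators of multiciliated cells. The share among all genes was 57.2%. The 11 include Foxj1, which guided the sort, and Fank1, Jazf1 and Foxn4, which the study had picked from its own microarray results. The calls of these genes are therefore no independent result. Myb, which drives cells into multiciliated differentiation, lay between 13.66 and 13.82 on the 5 arrays. Trp73, which encodes the p53 relative TAp73 and acts upstream of Foxj1 and the RFX genes, read 11.95, 11.83, 12.25, 12.08 and 11.90. Replicate 3 was its highest array. E2f4, which turns on centriole genes together with Multicilin, lay between 9.44 and 9.76. Replicate 3 was barely the highest, with replicates 4 and 5 both at 9.73. E2f4 was not called when only the tissue-restricted genes set the level (adjusted p = 0.356, limma), and E2f5, a relative on the same list, lost its call when probe sets were averaged, which left 10 of 11.

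**Figure D3:**
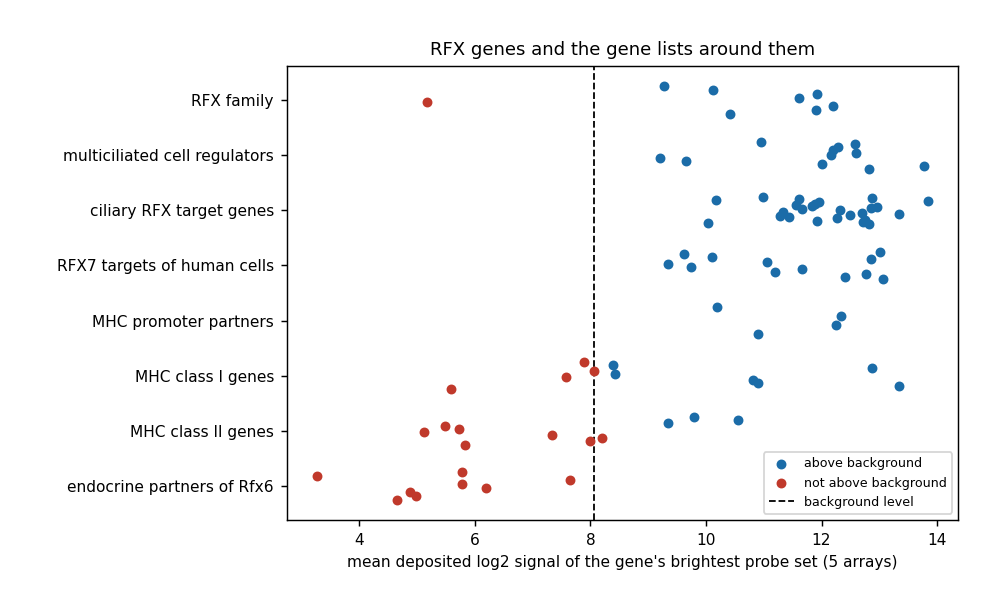
Mean deposited log2 signal over the 5 arrays (horizontal axis) of the brightest probe set of each gene, for the RFX family and 7 gene lists (rows); blue points are genes called above background, red points are not, and the dashed line is the background level of 8.06. The RFX family has 7 blue points and 1 red point (Rfx4), all 25 ciliary targets are blue, and all 8 endocrine factors are red.

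Mouse counterparts of genes that RFX7 activates in human cells were above background in 12 of 12 cases, against 57.2% of all genes. Pdcd4, an inhibitor of translation, read 13.08, 13.07, 13.07, 13.03 and 13.08, a range of 0.05. Pnrc1, a nuclear receptor coregulator, was at 12.41 ± 0.08 and Mxd4, a MYC antagonist, at 12.77 ± 0.09 (SD, n = 5 arrays). Averaged over its probe sets, Pnrc1 was at 6.98 and lost its call against the level of 7.17 for averaged probe sets, which left 11 of 12. Against higher levels fewer were called: 9 of 12 at 9.56 (tissue-restricted genes alone) and 8 of 12 at 10.49 (99th percentile). Of all genes, 41.2% and 28.3% passed these levels. Pik3r3, a regulatory subunit of PI3 kinase, was at 11.19 ± 0.14, with replicate 4 the lowest array at 10.95. Rfx7 too was lowest in replicate 4, while the mean over the 12 genes ran only from 11.36 in replicate 4 to 11.43 in replicates 1 and 2.

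The 3 members of the MHC complex were all above background. Rfx5, its DNA-binding subunit, has 1 probe set, 1423103_at, which read 11.60, 11.51, 11.64, 11.68 and 11.65 (mean 11.62 ± 0.07; adjusted p = 4.82e-10, limma). Rfxap read 10.06, 10.17, 10.06, 10.22 and 10.09 on 1418859_at (mean 10.12 ± 0.07; adjusted p = 9.22e-09, limma). Its other probe set, 1455303_at, was above background too, at 9.58, 9.33, 9.11, 9.32 and 9.13 (mean 9.29 ± 0.19; adjusted p = 2.16e-06, limma). No array stood apart for Rfx5 or for the first Rfxap probe set, with ranges of 0.18 and 0.16.

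Rfxank, the ankyrin-repeat subunit, was above background with 1 of 3 probe sets. On 1419310_s_at it read 9.40, 9.37, 9.0, 9.33 and 9.30 (mean 9.28 ± 0.16; adjusted p = 1.31e-06, limma), where replicate 3 was the low array. The suffix of this probe set marks probes that match more than 1 transcript. The others, 1425670_at and 1455371_at, had means of 7.54 ± 0.18 and 7.39 ± 0.30 and were not above background. On 1455371_at replicate 3 was again the low array, at 6.87, and the other replicates lay between 7.40 and 7.65. Rfxank was not called when only the tissue-restricted genes set the background level, then 9.56.

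The factors that bind beside this complex at MHC class II promoters were above background in 4 of 4 measured cases. For all genes the share was 57.2%. The subunits of the trimer NF-Y were at 10.90 ± 0.08 (Nfya), 12.25 ± 0.20 (Nfyb) and 12.34 ± 0.03 (Nfyc), and Creb1 was at 10.19 ± 0.11 (SD, n = 5 arrays). Nfya was called through a suffixed probe set alone. Without such probe sets its mean was 6.03 and its call was lost, which left 3 of 4. The promoter of Nfya held the X-box pattern. The coactivator Ciita, which sets where MHC class II genes are expressed, was not above background. It read 5.83, 6.11, 5.59, 5.65 and 5.98 (mean 5.83 ± 0.22), below the background level on all 5 arrays. Against the receptor genes alone, at 5.44, it was above (adjusted p = 0.00265, limma).

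Of the 10 MHC class II genes measured, Ciita included, 3 were above background: H2-DMa and H2-DMb2, chains of the peptide-loading molecule H2-DM, and Cd74, the invariant chain. Of all genes, 57.2% were above background. H2-DMa was at 9.34 ± 0.34, H2-DMb2 at 10.55 ± 0.61 and Cd74 at 9.79 ± 0.69 (SD, n = 5 arrays). H2-DMb2 has a near-identical neighbour, so its signal may include transcripts of that copy. Cd74 read 9.25, 9.52, 9.65, 9.52 and 11.00, with replicate 5 far above the others. The classical chains read 8.14, 7.61, 7.62, 7.69 and 8.91 for H2-Aa, 7.92, 7.52, 8.06, 8.43 and 9.04 for H2-Ab1, and 7.02, 6.50, 7.39, 7.56 and 8.22 for H2-Eb1. Replicate 5 was the highest array for all 3, and their means did not pass the test against background (adjusted p = 1, 0.633 and 1, limma).

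Single MHC class II genes had ranges over the 5 arrays between 0.35 (H2-Eb2) and 1.75 (Cd74). Averaged over the 3 genes above background, the deviation ran from -0.54 in replicate 2 to 0.66 in replicate 5, and the next highest array was replicate 4 at 0.24. For Rfx5, Rfxap and Rfxank the lowest and the highest array were at most 0.40 apart on the probe set with the highest mean, and 0.77 apart on the Rfxank probe set 1455371_at. White blood cell markers moved with replicate 5 too. Their mean deviation was -0.59 in replicate 1 and 0.46 in replicate 5, over the 6 of 14 above background, and their mean level over all 14 ran from 7.35 to 8.19. Of these markers, Ptprc read 6.73 to 8.03 and Itgam 4.09 to 4.44, and neither was above background, while Lyz2 read 11.32 to 13.25. Against the receptor genes alone, at 5.44, Ptprc was above. Tyrobp (mean 9.56), Fcer1g (9.52), C1qb (9.59) and Cd68 (8.36) were called as well, while 8 of the 14 markers were not. The call of Cd68 was lost without replicate 2, 4 or 5. Alveolar type 2 markers had a mean deviation of -0.64 in replicate 1 and 0.63 in replicate 5. The part of these cells in the MHC class II values was not tested.

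**Figure D4:**
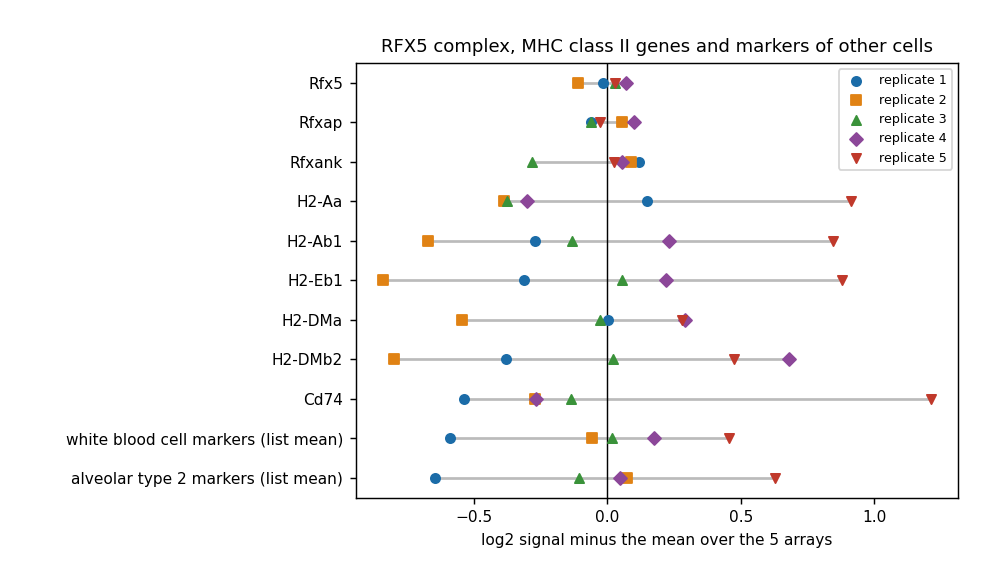
Deviation from the mean over the 5 arrays (horizontal axis, log2 units) of the brightest probe sets of Rfx5, Rfxap and Rfxank, of 6 MHC class II genes, and of the mean over the white blood cell and alveolar type 2 markers above background (rows); each symbol is 1 replicate and the grey line joins the lowest and the highest. The 3 complex members span at most 0.40, while Cd74 spans 1.75 with replicate 5 on the right.

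Genes of MHC class I presentation, which the same complex also serves, were above background in 6 of 10 measured cases, close to the 57.2% of all genes. B2m, the light chain of class I molecules, was at 13.34 ± 0.11, and H2-K1 and H2-D1, heavy chains whose probes can match several class I genes, were at 10.90 ± 0.15 and 10.81 ± 0.15 (SD, n = 5 arrays). Their coactivator Nlrc5 read 5.71, 5.26, 5.79, 5.97 and 5.23 and was not above background. Neither were H2-M3 at 7.57 ± 0.21, Tap2 at 8.06 ± 0.13 or Psmb9 at 7.89 ± 0.08. The call of Psmb8, an immunoproteasome subunit at 8.38 ± 0.20, was lost without replicate 3 (adjusted p = 0.0595, limma) or replicate 5 (adjusted p = 0.0584, limma), which left 5 of 10.

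Rfx6 acts in the endocrine pancreas, and the transcription factors of that programme were used as a list without a member on the array. Of 8 measured, 0 were above background by limma, 0 had an unadjusted p under 0.05 and 0 lay above the level on all 5 arrays. By limma, 57.2% of all genes were above background. Neurog3 was at 4.65 ± 0.20, Neurod1 at 4.97 ± 0.17, Pax6 at 4.88 ± 0.40 and Pax4 at 6.20 ± 0.21 (SD, n = 5 arrays). All of the 8 means lay between 3.27 and 7.64, the last being that of Insm1, which is also known from pulmonary neuroendocrine cells. Insm1 was called when the probe sets of each gene were averaged (adjusted p = 0.00469, limma) and without suffixed probe sets (adjusted p = 5.79e-05, limma).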

How the data were processed

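Gene expression was measured on Affymetrix mouse arrays in 1 group of 5 samples, assigned from the labels. RNA was amplified and biotin-labelled. The authors analysed the arrays with Bioconductor in R and deposited log2 signals, 1 per probe set and array. Their scale was taken from their range (2.37 to 15.11 without controls). The array medians lay close together (7.18 to 7.26), and the method of normalization was not given in the sources used here.

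Without 64 control probe sets, 34945 had 1 annotated gene, 932 several and 9160 none here. Platform symbols were checked through Entrez identifiers (99.4% found in the GRCm38.p6 gene table, 0 symbols changed). The brightest probe set stood for a gene in gene counts. An intercept per probe set was fitted in R 4.3.3 (limma 3.58.1, lmFit, eBayes) and tested one-sided against the level, with Benjamini-Hochberg adjustment over 45037 probe sets and a threshold of 0.05. The procedure was tested on simulated data. Members and lists were chosen with earlier results of these data known. Named are all members, the first 4 genes of each list other than the cell type marker lists, up to 5 genes whose call goes against most of such a list, and holders of the X-box pattern. Marker lists are given as counts. E2f5, Psmb8, Insm1 and the named white blood cell markers were named after their values were seen. Promoter patterns were searched with Python 3.11.15. The alternatives were averaging of probe sets, leaving out suffixed or dim probe sets, quantile or median normalization, a call on all 5 arrays, other background levels, a cut-off of 6, and leaving out each replicate. The number of arrays limits the precision.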

Additional observations from a re-analysis of the deposited data

Results flagged for a closer look

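Of 58 sets of 5 array values examined (18 RFX probe sets and 40 named genes of the lists), 4 had 1 array far from the others by Dixon's gap over range, with a critical value of 0.71. Chance flags about 1 in 20. On the Rfx2 probe set 1417332_at, replicate 3 read 12.27 and the nearest other array 11.85 (gap over range 0.90). On the Rfxank probe set 1419310_s_at, replicate 3 read 9.0 and the nearest other array 9.30 (0.76). Cd74 read 11.00 in replicate 5 and 9.65 in the nearest other array (0.77). Pik3r3 read 10.95 in replicate 4 and 11.22 in the nearest other array (0.80). The calls of these 4 genes above background were kept without the array named here.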

How the results depend on the processing

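The count of 7 RFX genes above background was the same with averaged probe sets, without suffixed probe sets, under both other normalizations, with a call on all 5 arrays, with dim probe sets left out, with the receptor genes alone as background and without any 1 replicate, and it was 6 with the tissue-restricted genes alone. The share of all genes above background was 77.3% with the receptor genes alone, against which 7 of 8 RFX genes differs little, and 41.2% with the tissue-restricted genes alone. RFX probe sets above background numbered 13 of 17 without suffixed probe sets, 15 of 18 with the receptor genes alone and 7 of 18 with the tissue-restricted genes alone. At the 99th percentile of all 146 background genes, a level of 10.49 that 28.3% of all genes passed, 4 RFX genes and 4 RFX probe sets were above it. Rfx1 (-0.084), Rfxap (-0.37) and Rfxank (-1.21) then lay below the level, and Rfxank (-0.28) did so with the tissue-restricted genes alone. MHC class II genes above background numbered 0 at the 99th percentile, 1 with the tissue-restricted genes alone and 8 with the receptor genes alone. Endocrine factors numbered 1 with averaged probe sets, 1 without suffixed probe sets and 3 with the receptor genes alone. The shares of all genes in these settings were 56.5%, 61.9% and 77.3%, in the same order. These counts follow the height of the level; for the endocrine factors the level fell to 7.17 and 6.97 in the first cases. No paired analysis was possible because the series has 1 group.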

Other observations

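Across all 14452 measured genes with a promoter in the table, the X-box pattern was present in 3.78% of the 8499 genes above background and in 2.03% of the 5953 that were not. The median GC content of the promoters was 61.3% in those above background and 54.0% in the others, and its part in that difference was not tested. Of 442 genes with the pattern, 321 were above background. Besides Rfx1, Rfx2 and Rfx3, 22 genes held the back-to-back pattern of these promoters, and of the 17 measured ones 11 were above background, against 8499 of all 14452. Rfx8, a family gene outside the members followed here, read 5.98, 6.02, 5.60, 5.72 and 5.53 on its probe set 1435724_at. It was above the cut-off of 5 (adjusted p = 4.4e-05, limma) and below the background level of 8.06 on every array.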
